A study of Rattus norvegicus with 4 samples.

Results

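Smooth muscle cells and pericytes, the mural cells that wrap blood vessels, contract with a set of proteins that most other cells make little of. The 10 genes described here encode that set: the actins Acta2 and Actg2, the myosin heavy chain Myh11, the myosin light chain kinase Mylk, the actin nucleator Lmod1, the actin-binding proteins Tagln, Cnn1 and Smtn, the intermediate filament protein Des, and Rgs5, a regulator of G-protein signalling that marks pericytes. They were picked by gene symbol from a deposited table of 13554 genes, and each symbol matched 1 row. The table compares articular cartilage, which covers the bone ends in joints, with xiphoid cartilage, which forms the lower tip of the breastbone, in 2 libraries per tissue. All 4 libraries came from Sprague-Dawley rats at an age of 8-10 weeks; the labels name no treatment or altered gene, and they do not state the sex, the joint or the number of animals per library. Because nothing says that the libraries of a tissue are separate animals, p-values measure only the spread between these samples, possibly a technical one.

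Contraction of these cells is switched on by calcium. Calmodulin that has bound calcium activates the kinase made by Mylk, which phosphorylates the myosin light chain so that Myh11 myosin can pull on actin filaments. Transgelin, calponin and smoothelin sit on those filaments, desmin links them to the rest of the cell, and the transcription factor SRF with its partner myocardin turns many of these genes on through a DNA element called the CArG box. Cartilage proper has no vessels, so mural cells in a dissected piece lie in the perichondrium, in vascular canals or in attached tissue.

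Most of the set was higher in xiphoid cartilage. Lmod1, Des, Cnn1, Acta2, Tagln, Myh11 and Mylk, 7 of the 10 genes, were higher in xiphoid cartilage (edgeR quasi-likelihood test with Benjamini-Hochberg adjustment over all genes tested, adjusted p under 0.05), where 24.5% of the 11202 genes tested were called in that direction. Their fitted differences ran from 2.60-fold for Mylk to 23.3-fold for Lmod1. Rgs5 alone was called in the other direction, at 1.96-fold higher in articular cartilage, where 25.0% of the genes tested were called; that call was lost in several alternative settings. Smtn and Actg2 did not pass. The median log2 fold change over the 10 genes, articular over xiphoid, was -1.71, and over all genes tested it was -0.02. In these bulk samples fewer cells of a type and less RNA per cell cannot be told apart.

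Depth was similar in all libraries, at 7351006 to 8434820 estimated counts each. Levels are given as CPM, read counts scaled to a common library size, and are compared only within a gene, since transcript lengths were not used here. All 10 genes passed the filter on low counts, Cnn1 through its xiphoid libraries alone, so that Cnn1 had to differ in order to be tested. Chondrocyte markers were present in all libraries, and all 12 matched genes of that list had counts in both tissues, with a summed level of 108400 to 129200 CPM in articular and 29860 to 32440 CPM in xiphoid cartilage. Without Col2a1, picked out after its level was seen, the other 11 summed to 22730 to 25820 CPM against 14990 to 16090 CPM. Of the 12 genes, 7 were called toward articular cartilage, 1 (Cnmd) toward xiphoid cartilage and 4 did not pass. Over all genes tested, 25.0% were called toward articular and 24.5% toward xiphoid cartilage. Markers of bone and marrow summed to 11620 to 12630 CPM in articular against 853.9 to 922.9 CPM in xiphoid cartilage.

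**Figure D1:**
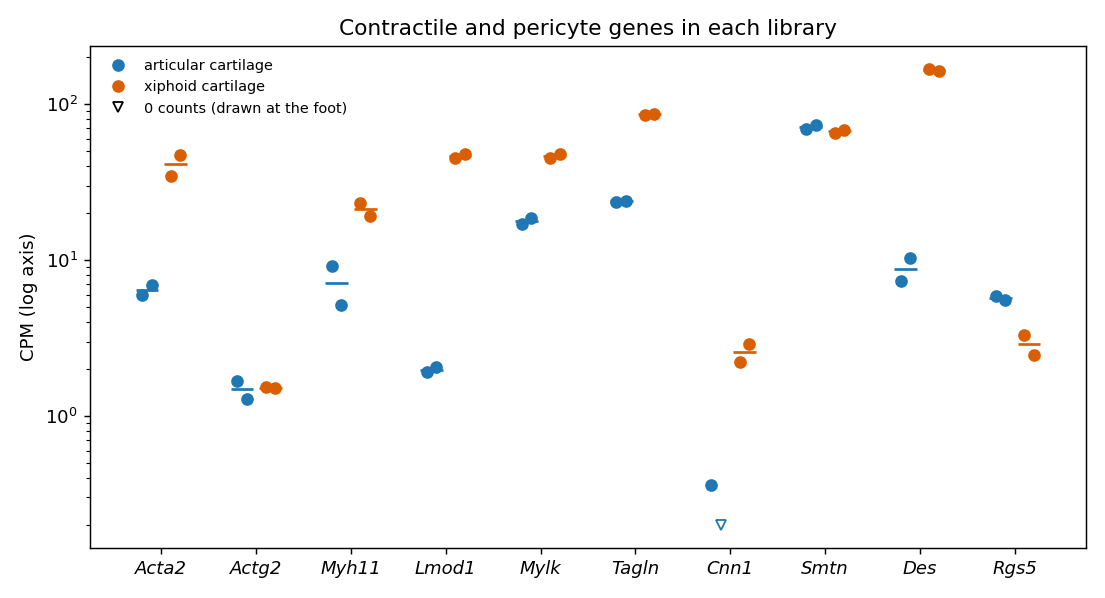
Level of each of the 10 genes in each library. The vertical log axis is CPM, each point is 1 library (blue articular, orange xiphoid), short bars are means of 2 libraries (not drawn for Cnn1 in articular cartilage), and an open triangle marks a library with 0 counts. For 7 genes both xiphoid points lie above both articular points, for Smtn and Rgs5 both articular points lie above, and for Actg2 the tissues overlap.

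Acta2 (Entrez gene 81633) encodes smooth muscle alpha actin, the thin filament actin of vascular smooth muscle and of myofibroblasts. It was at 5.98 and 6.94 CPM in the articular libraries against 34.9 and 47.4 CPM in the xiphoid libraries. Both xiphoid libraries were well above both articular libraries. Across the 10 genes this held for 7, where 37.8% of all genes tested had both xiphoid libraries on top. The fitted difference for Acta2 was 6.36-fold (log2 fold change -2.67 with SE 0.23, adjusted p = 1.77e-06).

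The muscle actins are nearly the same as proteins, and their coding sequences are similar. Reads of Acta2 may therefore be uncertain where another actin is abundant. Acta1, the skeletal muscle actin, had 19 and 13 counts in the articular libraries against 25784 and 26849 counts in the xiphoid libraries. The Acta2 counts of the xiphoid libraries, 297 and 346, equalled 1.15% and 1.29% of the Acta1 counts there, not adjusted for length. Whether a share of that size was misassigned was not tested. Actc1, the cardiac actin, had no count in either articular library, had 5 and 7 counts in the xiphoid libraries, and was not tested.

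Actg2 (Entrez gene 25365) encodes smooth muscle gamma actin, the form typical of gut and bladder muscle. It had 14 and 10 counts in the articular libraries against 13 and 11 in the xiphoid libraries, or 1.67 and 1.28 CPM against 1.53 and 1.51 CPM. The tissues overlapped, and the 24 counts per tissue have an exact 95% Poisson interval of 15.4 to 35.7, which covers counting error only. The log2 fold change was -0.03 with a 95% interval of -1.20 to 1.14 (adjusted p = 0.967), so differences within this interval, in either direction, are not excluded.

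The start regions of Acta2 and Mylk are shown because both genes were higher in xiphoid cartilage and both held a match to a pattern counted below. Des and Cnn1 were also higher in xiphoid cartilage and held no match. RefSeq promoters of build GRCr8, 250 bases before to 50 after the gene's start, were matched for 7 of the 10 genes; Myh11, Tagln and Lmod1 are not shown. Of 33469 promoters of the same 300 bases, 1.64% held an exact CArG box, 8.10% held a CArG-like match with 1 C or G inside the 6-base core, and 14.2% held the MCAT element CATTCC, which TEAD factors bind, on either strand. None of the 7 promoters held an exact CArG box. Acta2 held 2 CArG-like matches, starting 134 and 84 bases before the start, and an MCAT element 196 bases before it, and Mylk held an MCAT element 36 bases before the start; the other 5 held none of these. The stretches below run 5′ to 3′ along the gene at chr1:241172564-241172703 and chr11:79498575-79498654, both on the minus strand, with the matches in capitals; the MCAT element of Acta2 lies on the opposite strand and so appears reversed and complemented.
Acta2: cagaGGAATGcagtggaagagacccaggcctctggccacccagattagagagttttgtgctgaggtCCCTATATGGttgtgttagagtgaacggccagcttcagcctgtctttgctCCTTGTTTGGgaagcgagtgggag
Mylk: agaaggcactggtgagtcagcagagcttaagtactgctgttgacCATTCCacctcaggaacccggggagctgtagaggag
A match describes letters only, and no factor binding was measured here.

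Myh11 (Entrez gene 24582) encodes the smooth muscle myosin heavy chain, a selective marker of mature smooth muscle. It was at 9.21 and 5.14 CPM in the articular libraries against 23.4 and 19.2 CPM in the xiphoid libraries. The articular libraries differed from each other by more than for the other genes except Cnn1, and both lay below the xiphoid libraries. The fitted difference was 2.95-fold toward xiphoid cartilage (log2 fold change -1.56 with SE 0.28, adjusted p = 5.91e-04).

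Lmod1 (Entrez gene 304816) encodes leiomodin 1, which starts new actin filaments in smooth muscle. Its counts were 16 in each articular library and 385 and 349 in the xiphoid libraries, or 1.91 and 2.06 CPM against 45.3 and 47.8 CPM. The libraries of each tissue lay close together and the tissues lay far apart. Lmod1 was 23.3 times as high in xiphoid cartilage (log2 fold change -4.54 with SE 0.24, adjusted p = 2.22e-08), and 2.07% of the genes tested had a log2 fold change as low as this or lower.

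Mylk (Entrez gene 288057), the light chain kinase, was at 17.1 and 18.6 CPM in the articular libraries against 44.9 and 47.9 CPM in the xiphoid libraries. Again both xiphoid libraries were higher. The difference was 2.60-fold (log2 fold change -1.38 with SE 0.18, adjusted p = 4.79e-05). The gene also makes a long non-muscle kinase and a short product without kinase activity, telokin. The row combined 1 annotated transcript with 3 that the submitters' pipeline assembled, so these products cannot be told apart here.

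Tagln (Entrez gene 25123) encodes transgelin, also called SM22, an early marker of smooth muscle that activated fibroblasts make as well. It was at 23.6 and 24.0 CPM in the articular libraries against 85.7 and 87.0 CPM in the xiphoid libraries. Replicates were nearly level within each tissue. The fitted difference was 3.63-fold toward xiphoid cartilage (log2 fold change -1.86 with SE 0.16, adjusted p = 1.52e-06).

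Cnn1 (Entrez gene 65204) encodes calponin 1, an inhibitor of the myosin motor found in mature smooth muscle. It was scarce, with 3 and 0 counts in the articular libraries against 19 and 21 counts in the xiphoid libraries. Both xiphoid libraries were higher, yet the articular value rests on 3 counts in all. The ratio of xiphoid to articular counts, scaled to library size, was 13.6 with an exact 95% counting interval of 4.34 to 68.8 (edgeR adjusted p = 0.00304). Without articular replicate 1, the other articular library has no count and the fitted log2 fold change of -7.33, against -3.67 with all libraries, is no measure of size; without articular replicate 2 it was -2.77.

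Smtn (Entrez gene 289734) encodes smoothelin, a filament-binding protein of contractile smooth muscle with a shorter form in visceral and a longer form in vascular muscle. It was at 69.3 and 73.9 CPM in the articular libraries against 65.5 and 68.5 CPM in the xiphoid libraries. The articular libraries were slightly higher and did not overlap with the xiphoid ones, as was also true of Rgs5, so 2 of the 10 genes had both articular libraries on top, against 37.1% of all genes tested. The log2 fold change was 0.10 with a 95% interval of -0.23 to 0.42 (adjusted p = 0.629). With 500 to 579 counts in each library, Smtn had the most counts of the set in articular cartilage, and its interval does not reach the log2 fold change fitted for any of the 7 genes higher in xiphoid cartilage.

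Des (Entrez gene 64362) encodes desmin, the intermediate filament protein of smooth, skeletal and cardiac muscle, and of some pericytes. It was at 7.30 and 10.3 CPM in the articular libraries against 169 and 165 CPM in the xiphoid libraries. The gap between tissues was many times the gap between replicates. Des was 19.0 times as high in xiphoid cartilage (log2 fold change -4.25 with SE 0.20, adjusted p = 7.19e-09), and 2.40% of the genes tested had a log2 fold change as low as this or lower. Skeletal muscle makes desmin too, and its markers moved with Des. Among all genes tested, 24.5% were called toward xiphoid and 25.0% toward articular cartilage. Of 28 tested skeletal muscle markers, of which 18 passed the filter through their xiphoid libraries alone and so had to differ, 26 were higher in xiphoid cartilage and 0 in articular cartilage (also 0 at an unadjusted p under 0.05, with DESeq2 and with limma-voom), and their summed level was 295.3 to 390.8 CPM in articular against 12240 to 12280 CPM in xiphoid cartilage. In the articular libraries 7 of them, namely Myh2, Myh3, Myh7, Actn2, Myl2, Myot and Pvalb, listed here after their counts were seen, were at 0 counts, and most of the articular sum came from Tnni2 and Myl3, which did not pass (adjusted p = 0.925 and 0.940) and were singled out after their values were seen. The part of skeletal muscle RNA in the difference of Des, or of the other members, was not tested.

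Rgs5 (Entrez gene 54294) shortens signalling through G-protein coupled receptors and is a widely used pericyte marker. It had 49 and 43 counts in the articular libraries against 28 and 18 in the xiphoid libraries, or 5.86 and 5.52 CPM against 3.29 and 2.47 CPM. Here both articular libraries were higher. The fitted difference was 1.96-fold (log2 fold change 0.97 with SE 0.36, adjusted p = 0.0400). The call did not hold with DESeq2 (adjusted p = 0.129). Without articular replicate 1 the adjusted p was 0.115, without articular replicate 2 it was 0.0763, without xiphoid replicate 1 it was 0.0532 and without xiphoid replicate 2 it was 0.187, while the log2 fold change stayed between 0.80 and 1.21.

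**Figure D2:**
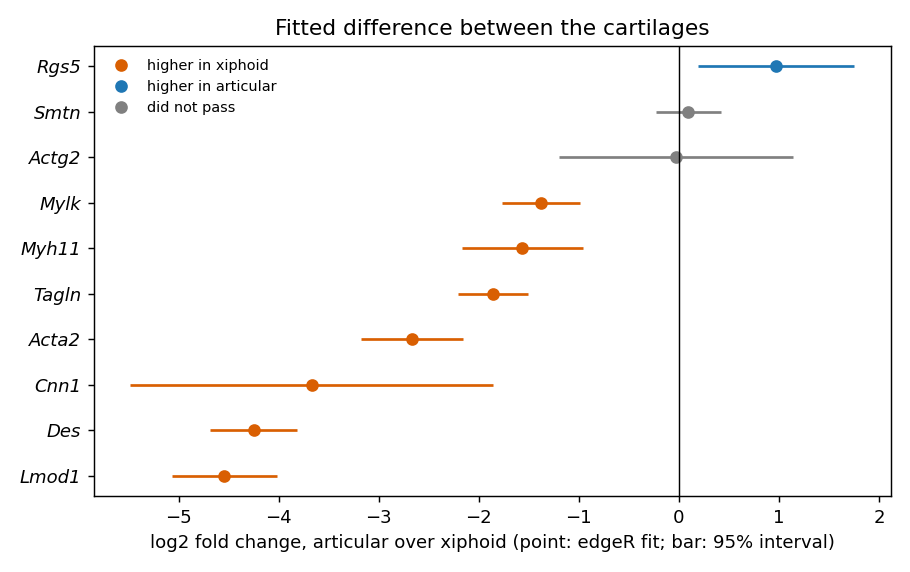
Fitted log2 fold change of each gene, articular over xiphoid, with its 95% interval from the edgeR fit on 2 libraries per tissue. Orange genes were higher in xiphoid cartilage, blue in articular cartilage, and grey genes did not pass; Lmod1 and Des lie farthest to the left, at -4.54 and -4.25, and Rgs5 lies to the right at 0.97.

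The 7 genes higher in xiphoid cartilage had fitted differences of unlike size. The 95% intervals of Lmod1 (-5.07 to -4.01) and Des (-4.68 to -3.82) lay below those of Acta2 (-3.18 to -2.16), Tagln (-2.21 to -1.51), Myh11 (-2.17 to -0.96) and Mylk (-1.76 to -0.99). Lmod1 and Des overlapped with each other, Acta2 overlapped narrowly with Tagln and Myh11, and Tagln, Myh11 and Mylk overlapped with one another, and the wide interval of Cnn1 (-5.48 to -1.86) overlapped with those of Lmod1, Des, Acta2, Tagln and Myh11. Differences between genes were not tested. By the Gene Ontology terms in the deposited table, Acta2, Actg2 and Myh11 share the component smooth muscle contractile fiber, which 4 of the genes tested carry in all, and these 3 genes ran from -2.67 to -0.03. Cnn1, Lmod1, Myh11 and Mylk share the function actin binding, carried by 1.53% of the genes tested. All 4 were among those higher in xiphoid cartilage, where 24.5% of all genes tested were called. Cnn1 passed the filter on low counts through its xiphoid libraries alone. Tagln and Smtn, also actin-binding proteins, do not carry the term there, and Smtn did not pass.

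Most of the 10 genes have close relatives that act outside smooth muscle, and these were listed beside them. Some of the relatives, such as Rgs2, act in smooth muscle as well. Of 15 tested relatives, 10 were called toward xiphoid cartilage, 0 toward articular cartilage and 5 did not pass, with a median log2 fold change of -1.66. Of the 15 relatives, 3 passed the filter on low counts through their xiphoid libraries alone and so had to differ. Acta1 is also counted among the skeletal muscle markers. Among all genes tested, 24.5% were called toward xiphoid and 25.0% toward articular cartilage. The articular count of 0 was also 0 with DESeq2 and 0 with limma-voom, and also 0 at an unadjusted p under 0.05 in the edgeR fit. Myh9 was the 1 tested relative whose articular libraries were both on top, against 37.1% of all genes tested. For 10 of the 15 tested relatives both xiphoid libraries were on top, against 37.8% of all genes tested. The cytoplasmic actins, which every cell makes, did not pass: Actb was at 802 and 1105 CPM in articular and 915 and 1226 CPM in xiphoid cartilage (adjusted p = 0.501), and Actg1 had an adjusted p of 0.619. The tissues overlapped for both.

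Several non-muscle relatives differed in the same direction as their smooth muscle counterparts. Cnn3, the calponin of non-muscle cells, was at 123 and 126 CPM in articular and 376 and 411 CPM in xiphoid cartilage, 3.16-fold higher there (adjusted p = 1.76e-06). Tagln2, the widely expressed transgelin, was 2.38 times as high in xiphoid cartilage (adjusted p = 2.67e-05). Vim, which encodes vimentin, the intermediate filament of mesenchymal cells and the counterpart of desmin there, was at 921 and 1044 CPM against 4842 and 5162 CPM, 5.09 times as high in xiphoid cartilage (adjusted p = 2.12e-07). Of the non-muscle myosins, Myh10 (adjusted p = 0.328) and Myh14 (adjusted p = 0.701) did not pass.

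Acta1 and other striated muscle relatives showed the widest gaps among the relatives. Lmod2, the leiomodin of heart and skeletal muscle, and Smtnl1, a smoothelin-like protein of muscle, had no count in either articular library, so that both passed the filter on low counts through their xiphoid libraries alone. Against a floor of 3 counts over both articular libraries, Lmod2 was at least 31.7-fold higher (adjusted p = 2.61e-05) and Smtnl1 at least 68.1 times as high in xiphoid cartilage (adjusted p = 1.24e-06). Mylk2, the light chain kinase of skeletal muscle, was 21.0 times as high in xiphoid cartilage (adjusted p = 2.47e-07), against 2.60-fold for Mylk. Smtnl2 was 2.42 times as high in xiphoid cartilage (adjusted p = 0.00287). Skeletal muscle markers moved with these genes (values beside Des).

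Rgs4 and Rgs2, relatives of Rgs5, lay on the xiphoid side. Rgs4 was at 0.837 and 0.899 CPM in articular and 6.35 and 7.81 CPM in xiphoid cartilage, 8.02-fold higher there (adjusted p = 1.11e-04). Rgs2, a brake on contraction signals in vascular smooth muscle, was at 2.63 and 3.47 CPM against 14.7 and 16.3 CPM, 5.07 times as high in xiphoid cartilage (adjusted p = 3.25e-05). For both genes the xiphoid libraries were clearly the higher ones, and Rgs4 passed the filter on low counts through them alone. Rgs16, the other relative listed, had 2 and 1 counts in the articular libraries against 1 and 1 in the xiphoid libraries, too few to test.

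Myh9, the main non-muscle myosin, could not be read by itself. Its counts were 2232 and 1061 in the articular libraries against 616 and 136 in the xiphoid libraries, with a log2 fold change of 2.14 that did not pass (adjusted p = 0.198). The table also lists Myh9l1, looked up after these values were seen, with 0 and 576 counts in the articular libraries against 708 and 847 in the xiphoid libraries. Where Myh9 was high Myh9l1 was low, library by library. Such rows can share reads, and their sum was 2232 and 1637 counts in articular and 1324 and 983 counts in xiphoid cartilage. The list's articular count became 1 without articular replicate 1, without articular replicate 2, without xiphoid replicate 1 or without xiphoid replicate 2, and also with the replicate block.

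Partners of the contractile filaments were found on both sides, more often on the xiphoid side. Of 26 tested thin and thick filament partners, 12 were called toward xiphoid cartilage, 4 toward articular cartilage and 10 did not pass, with a median log2 fold change of -0.34. The shares over all genes tested were 24.5% toward xiphoid and 25.0% toward articular cartilage. Of the 26 partners, 2 passed the filter on low counts through their xiphoid libraries alone and so had to differ. Tpm2, the beta tropomyosin of muscle, was at 16.6 and 11.3 CPM in articular and 557 and 557 CPM in xiphoid cartilage, 39.8-fold higher there (adjusted p = 1.63e-09). Tpm1, alpha tropomyosin, was 5.89-fold (adjusted p = 9.89e-08), Ldb3, a Z-disc protein, 21.9-fold (adjusted p = 3.82e-08) and Pdlim3, which binds alpha actinin, 108 times as high in xiphoid cartilage (adjusted p = 8.96e-09). Pdlim3 passed the filter on low counts through its xiphoid libraries alone. All 4 are also made by skeletal muscle. On the articular side were Tln1, which couples integrins to actin, at 1.83-fold (adjusted p = 6.21e-04) and Itga5, the fibronectin receptor subunit, at 1.80-fold (adjusted p = 7.59e-04).

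Genes of the switch that sets myosin light chain phosphorylation were called in both directions in equal number. Of its 21 tested genes, 7 were higher in xiphoid cartilage, 7 in articular cartilage and 7 did not pass, where 24.5% and 25.0% of all genes tested were called in these directions, with a median log2 fold change of -0.04. On the articular side were Rock1 and Rock2, kinases that keep the light chain phosphorylated by holding back its phosphatase. Rock1 was at 36.7 and 57.0 CPM in articular and 8.00 and 8.90 CPM in xiphoid cartilage (5.54-fold, adjusted p = 5.37e-06), and Rock2 was 3.68 times as high in articular cartilage (adjusted p = 5.92e-06). Ppp1r12a, the targeting subunit of that phosphatase, was 2.31-fold (adjusted p = 2.62e-04) and Arhgef12, an exchange factor that activates small GTPases, 1.96 times as high in articular cartilage (adjusted p = 3.01e-04).

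On the xiphoid side of the switch, Mrvi1, also known as Irag1, a target of the relaxing kinase PKG, was at 6.34 and 5.52 CPM in articular and 48.3 and 46.6 CPM in xiphoid cartilage (7.97-fold, adjusted p = 2.09e-07). Hspb6, a small heat shock protein of relaxed muscle, was 2.64 times as high in xiphoid cartilage (adjusted p = 6.46e-05). Calm3, 1 of the calmodulin genes, was 1.97-fold (adjusted p = 0.00369) and Ppp1r14b, a phosphatase inhibitor, 1.83-fold higher there (adjusted p = 0.00371). Without xiphoid replicate 1, the number of switch genes higher in xiphoid cartilage was 4.

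Calcium entry genes and contraction receptors were called in both directions. Of 14 tested, 2 were called toward xiphoid cartilage, 3 toward articular cartilage and 9 did not pass, with a median log2 fold change of 0.26. Over all genes tested, 24.5% and 25.0% were called in these directions. Agtr1a, an angiotensin receptor, was 4.04 times as high in xiphoid cartilage (adjusted p = 0.00516) and Avpr1a, a vasopressin receptor that passed the filter through its xiphoid libraries alone, 3.78-fold (adjusted p = 0.0310). Tbxa2r, the thromboxane receptor, was 3.76-fold (adjusted p = 0.0110), Gna12, a G-protein subunit that acts on the cytoskeleton, 1.72-fold (adjusted p = 6.16e-04) and Itpr1, a calcium release channel, 1.38 times as high in articular cartilage (adjusted p = 0.0323). The articular count was 1 without xiphoid replicate 1, and the xiphoid count was 1 when either xiphoid replicate 1 or xiphoid replicate 2 was left out. With all libraries, the xiphoid count of this list was 1 with DESeq2 and 0 with a filter at a mean CPM of 5. Kcnmb1, the smooth muscle subunit of a potassium channel, had 2 and 1 counts in the articular libraries and 0 in both xiphoid libraries, too few to test.

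Among the upstream regulators Gata6 had the lowest adjusted p. Of 10 tested genes of the SRF and myocardin list, 4 were called toward xiphoid cartilage, 1 toward articular cartilage and 5 did not pass, with a median log2 fold change of -0.28. Among all genes tested, 24.5% and 25.0% were called in these directions. Gata6, a transcription factor of vascular smooth muscle and of other tissues, had 2 and 5 counts in the articular libraries against 333 and 325 in the xiphoid libraries (93.0-fold, adjusted p = 1.99e-08), and passed the filter on low counts through its xiphoid libraries alone. Prrx1, a mesenchymal homeobox factor, was 2.80-fold (adjusted p = 2.37e-05), Csrp2, an SRF cofactor of smooth muscle, 3.09-fold (adjusted p = 1.12e-04) and Fhl2 2.65 times as high in xiphoid cartilage (adjusted p = 0.00366). Tbx18, a factor of mural and other mesenchymal cells, was 5.02 times as high in articular cartilage (adjusted p = 8.66e-04). The articular count of this list was 0 with a filter at a mean CPM of 5. Srf itself was at 46.3 and 33.3 CPM against 48.4 and 40.8 CPM and did not pass (adjusted p = 0.501), and Myocd, the gene of myocardin, had 1 and 3 counts against 4 and 0 and was not tested. Srf, Myocd and Kcnmb1 were singled out after their values were seen.

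**Figure D3:**
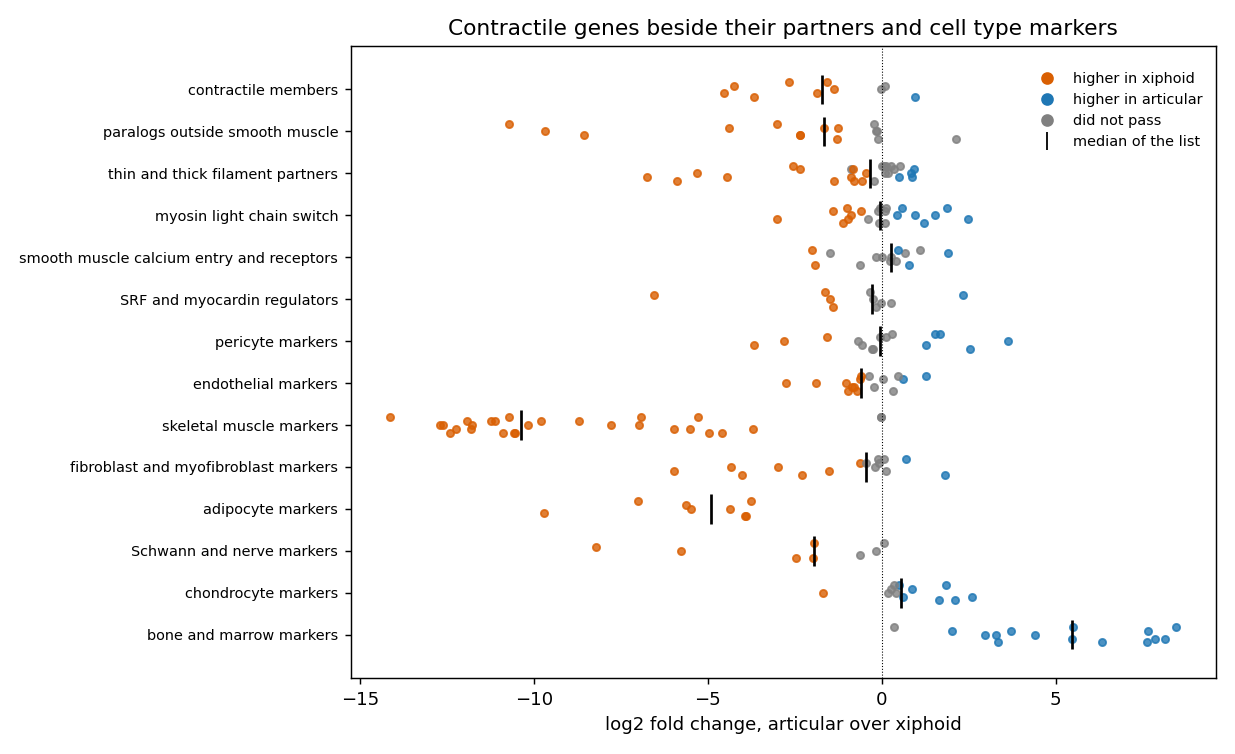
Log2 fold change, articular over xiphoid, of every tested gene in the contractile set, its partner lists and the marker lists of other cell types. Each point is 1 gene, coloured by its edgeR call, and the black bar is the median of the list, which is -1.71 for the contractile set, -0.04 for pericyte markers and -10.36 for skeletal muscle markers (-8.46 with the genes that have no articular count set at their bound).

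Pericyte markers were called in both directions, and endothelial markers lay mostly on the xiphoid side. Of 15 tested pericyte markers other than Rgs5, 3 were called toward xiphoid cartilage, 5 toward articular cartilage and 7 did not pass, where 24.5% and 25.0% of all genes tested were called in these directions. Of the 15 markers, 2 passed the filter on low counts through their xiphoid libraries alone and so had to differ. The median log2 fold change of the 15 markers was -0.04, and their summed level was 1539 to 1618 CPM in articular against 697.9 to 730 CPM in xiphoid cartilage. Ndufa4l2, Cox4i2 and Anpep, picked out after their levels were seen, made up most of the articular sum; the other 12 genes summed to 348.1 to 384 CPM in articular and 371.5 to 409.3 CPM in xiphoid cartilage. Pdgfrb, the receptor that recruits pericytes to vessels, was at 43.5 and 42.6 CPM in articular and 43.7 and 45.1 CPM in xiphoid cartilage (adjusted p = 0.844), singled out after its values were seen. The tissues were close to level for it.

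Among the pericyte markers called, Mcam, an adhesion molecule of mural and endothelial cells, was 3.0 times as high in xiphoid cartilage (adjusted p = 1.17e-05), and Vtn, which encodes vitronectin, had 5 and 1 counts against 45 and 33 (12.8-fold, adjusted p = 3.02e-04) and passed the filter on low counts through its xiphoid libraries alone. Anpep, an aminopeptidase that many other cells make, was 12.3-fold (adjusted p = 7.49e-09) and Abcc9, a potassium channel regulator of pericytes, 3.21 times as high in articular cartilage (adjusted p = 2.41e-04). Cox4i2 (5.77-fold, adjusted p = 2.55e-06) and Ndufa4l2 (2.43-fold, adjusted p = 3.89e-05), which are subunits or relatives of subunits of the respiratory chain that also respond to low oxygen, were higher in articular cartilage as well. The xiphoid count of this list was 5 without articular replicate 2 and with the replicate block, and 1 with a filter at a mean CPM of 5.

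Of 16 tested endothelial markers, 9 were called toward xiphoid cartilage, 2 toward articular cartilage and 5 did not pass, with a median log2 fold change of -0.60. For all genes tested the shares called in these directions were 24.5% and 25.0%. Their summed level was 352.6 to 368.4 CPM in articular against 471.1 to 482.5 CPM in xiphoid cartilage. Cldn5, a tight junction protein of vessels, was 6.74-fold (adjusted p = 8.60e-07), Sox17, an arterial transcription factor, 3.68-fold (adjusted p = 4.03e-04), Eng 1.82-fold (adjusted p = 7.87e-04) and Pecam1 1.73 times as high in xiphoid cartilage (adjusted p = 0.00155). Kdr, a VEGF receptor, was 1.54 times as high in articular cartilage (adjusted p = 0.0298), and so was Erg (2.44-fold, adjusted p = 7.77e-05), which joint chondrocytes make as well. The articular count was 1 without xiphoid replicate 2. With DESeq2 on all libraries the articular count was 1 as well. The part of vessel density in the differences of the contractile genes was not tested.

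Fibroblast markers were called in both directions and adipocyte markers toward xiphoid cartilage. Of 15 tested fibroblast and myofibroblast markers, 7 were called toward xiphoid cartilage, 2 toward articular cartilage and 6 did not pass. Over all genes tested, 24.5% and 25.0% were called in these directions. The summed levels of the fibroblast list were 10740 to 11380 CPM in articular and 14470 to 14680 CPM in xiphoid cartilage. Postn, a matrix protein of activated fibroblasts, was 16.3 times as high in xiphoid cartilage (adjusted p = 6.36e-09), and Fap, a protease of activated fibroblasts, was 3.50 times as high in articular cartilage (adjusted p = 3.61e-06). All 8 tested adipocyte markers, Lep passing the filter through its xiphoid libraries alone, were higher in xiphoid cartilage, with summed levels of 79.6 to 93.2 CPM against 2386 to 3012 CPM. Their part in the contractile differences was not tested. With the markers of skeletal muscle, fat, bone and marrow left out before library scaling, 7 of the contractile genes were still called higher in xiphoid cartilage, which bears on scaling only.

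**Figure D4:**
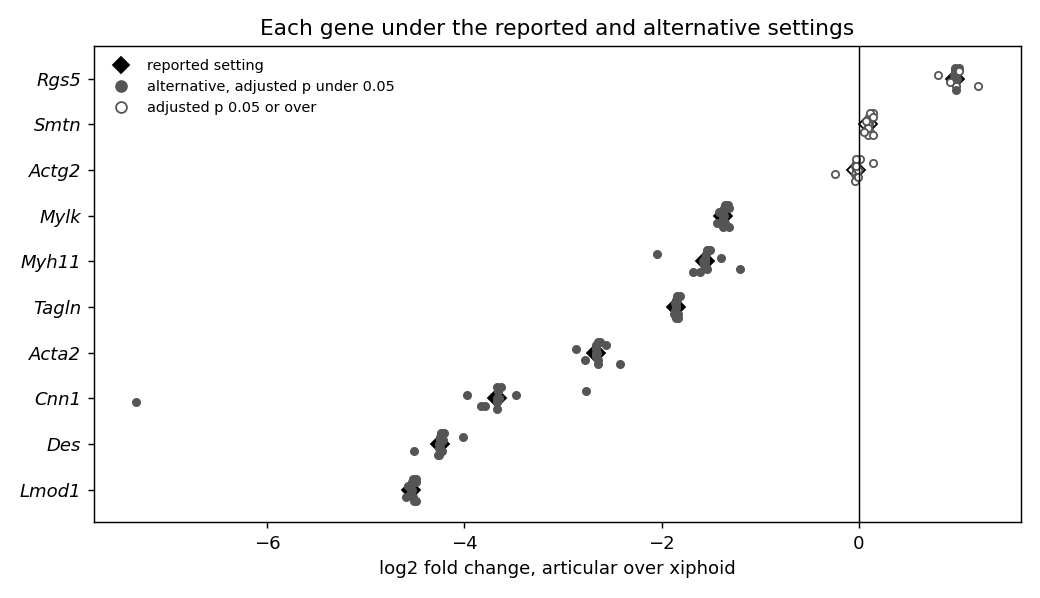
Log2 fold change of each gene, articular over xiphoid, with the reported setting as a diamond and each alternative setting as a small point, filled where the adjusted p was under 0.05. The 7 genes higher in xiphoid cartilage stay filled and left of 0 in all the alternatives that tested them, while the points of Rgs5 are partly open.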

How the data were processed

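The transcripts of 4 libraries were measured by RNA sequencing. The authors deposited expected counts by gene for each library, not normalized, per the file headers and values; 3.91% of the values were not whole. The tools named in the submitters' processing notes are RSEM 1.2.12, Bowtie2 2.2.6, StringTie 1.2.1 and HISAT2 2.0.4, and the build is rn6; roles and order are not stated there. Use of strand in the counting is not given in the sources, and in RefSeq (GRCr8) Des, Lmod1 and Mylk overlap noncoding genes whose reads cannot be told apart from theirs.

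The counts were rounded, filtered with filterByExpr by tissue (a CPM of about 1.24 in 2 libraries and 15 counts in all) and scaled by TMM. The 11202 genes left were tested with the edgeR 4.0.16 quasi-likelihood test (robust glmQLFit, R 4.3.3), tissue as the only term, two-sided, with Benjamini-Hochberg adjustment over all of them at 0.05. Standard errors are the log2 fold change divided by the square root of F. Intervals are at 95%. In a fit without 1 library, the lone library is assumed to vary like the other tissue.

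The 10 genes and all lists were chosen with earlier results of these data known. Named beside the 10 genes and their relatives were, per list, up to 4 genes with the lowest adjusted p in the commoner direction and up to 2 in the other; the myosin light chain switch, with equal counts, took 4 in each. Other genes named are marked as singled out after their values were seen. Alternatives were RLE and upper-quartile factors, library sizes alone, DESeq2 1.42.0, limma-voom (limma 3.58.1), no filter, a filter at a mean CPM of 5, a replicate block, leaving out ribosomal RNA rows or marker genes, and leaving out each library. Replicates of a tissue differed by more than sampling noise. Promoters are from RefSeq (GRCr8), used for sequence only.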

Additional observations from a re-analysis of the deposited data

How the results depend on the processing

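Over 14 alternative settings, the 7 genes higher in xiphoid cartilage kept their direction and their call wherever they were tested; a mean CPM of at least 5 left out Cnn1, Actg2 and Rgs5, so 6 were then called. The call of Rgs5 was lost with DESeq2 (log2 fold change 0.99, adjusted p = 0.129), which used the same 4 libraries and 11202 genes. It was also lost without each library in turn (log2 fold change 0.80 to 1.21), in fits with fewer samples. The number of members higher in articular cartilage, 1 as reported, was 0 with DESeq2. It was also 0 with a mean CPM of at least 5, where Rgs5 was not tested. The cause of the lost call in the other fits was not tested. Actg2 changed sign with upper-quartile factors (0.014) and without articular replicate 2 (0.14, within -0.24 to 0.14 over the fits without a library), never with a call. The replicate numbers of the labels are not stated to pair the libraries. The deviations of same-numbered libraries had a correlation of 0.24, from 1 contrast of 2 pairs. With the replicate block 3344 genes were called toward articular and 3484 toward xiphoid cartilage, against 2799 and 2745 without it, and the members' counts were 7 and 1 as before, with Rgs5 at 0.98 (adjusted p = 0.0243). Of the counts of the other lists, 338 stayed within 1.5 times the reported count and 18 did not. Where a tissue has no count, its floor of 3 counts equals 0.186 CPM for the articular and 0.190 CPM for the xiphoid libraries.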

Other observations

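Gfap and S100b, listed as glial and Schwann cell genes, stood out in xiphoid cartilage. Gfap, a glial intermediate filament gene related to Des and Vim, was at 22.0 and 18.8 CPM in articular and 1093 and 1120 CPM in xiphoid cartilage, 54.2-fold higher there (edgeR adjusted p = 3.75e-10). S100b, which chondrocytes and fat cells make as well, was 3.95 times as high in xiphoid cartilage (adjusted p = 6.81e-07). Sox10, the defining Schwann cell factor, had 0 counts in both xiphoid libraries, looked up after its values were seen. Of 8 tested genes of the list, 5 were called toward xiphoid cartilage, 0 toward articular cartilage and 3 did not pass (edgeR). The shares over all genes tested were 24.5% toward xiphoid and 25.0% toward articular cartilage. The articular count was also 0 at an unadjusted p under 0.05, with DESeq2 and with limma-voom. The summed level of the list was 499.3 to 571.9 CPM in articular against 2717 to 2807 CPM in xiphoid cartilage. Without Gfap and S100b the other 7 genes summed to 128.5 to 152.3 CPM against 169.2 to 179.1 CPM.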
